A study of Mus musculus with 6 samples.

Results

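The genes described here encode 8 proteins of the myelin membrane and its cytoplasmic faces: Mag, Ncmap, Cnp, Mal, Pllp, Mbp, Pmp22 and Cd9. They were taken as a named set of structural myelin protein genes, each read from its 1 probe set, and are 8 of 20239 named genes on the array. Expression in sciatic nerve was measured with Affymetrix arrays that probe whole transcripts, each sample on its own array. The 3 mutant mice had the genotype DhhCre::Sip1 flox/flox and the 3 control mice the genotype Sip1 flox/flox, and all were 25 days old. Sip1 is another name of Zeb2, a zinc finger transcription factor, and the Dhh promoter drives Cre recombinase in the Schwann cell lineage. Both groups carry the floxed alleles, and the controls differ from the mutants in lacking Cre. Whole nerve also holds fibroblasts, perineurial, endothelial and immune cells. No label gives the strain or sex of the mice. The question was how much of the transcript of each gene the mutant nerves had relative to the controls, and whether the genes differed in depth of loss.

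Schwann cells of peripheral nerve wrap large axons in a multilayered membrane. In compact myelin, the cytoplasmic faces of the membrane are held together by myelin basic protein, and tetraspan proteins such as PMP22 sit within the layers. Noncompact regions, beside the axon and at the paranodes and incisures, keep cytoplasm and carry other proteins such as the adhesion molecule MAG and the enzyme CNP. MAL and plasmolipin are four-pass proteins with a MARVEL domain that associate with the lipid rafts of myelin.

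Zeb2 itself stood at 10.96, 10.66 and 11.01 on the log2 scale in the mutant nerves, against 11.67, 11.57 and 12.02 in the control nerves. Its log2 fold change was −0.88 (SE 0.15, limma adjusted p = 0.0137), and the adjusted p was 0.0522 without mutant 1. Deposited log2 values ran from 3.55 to 14.52 over the named genes, with array medians from 7.995 to 8.084, and 6 arrays limit the precision. The nerves differed in how much muscle and fat RNA they carried. Averaged over 18 skeletal muscle markers, the log2 level was 7.60, 12.62 and 10.01 in the mutants, against 7.69, 12.64 and 10.55 in the controls, by replicate number. That of 12 adipocyte markers ran from 10.36 to 11.21 in the mutants and from 10.08 to 12.29 in the controls. None of these muscle or adipocyte markers passed between the groups, and 0 had an unadjusted p under 0.05 in limma. Xist placed 1 female among the mutants and 2 among the controls. In these bulk samples, fewer cells of a type and less RNA per cell cannot be told apart.

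All 8 genes were lower in the mutant nerves, over a wide range of depth (limma with Benjamini-Hochberg adjustment over 20239 genes). At an adjusted p under 0.05, 3.89% of all genes were lower and 5.74% higher, together 9.62%. The members were chosen with earlier results of these data known, so their count does not stand as a test of the group. The groups overlapped in none of the 8 genes, with every mutant nerve under the lowest control, as was the case in 11.8% of all genes. The median log2 fold change of the 8 was −2.21, beside −0.02 over all genes. On the linear scale, the mutant nerves kept between 3.38% of the control signal, for Mag, and 65.9%, for Pmp22.

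**Figure D1:**
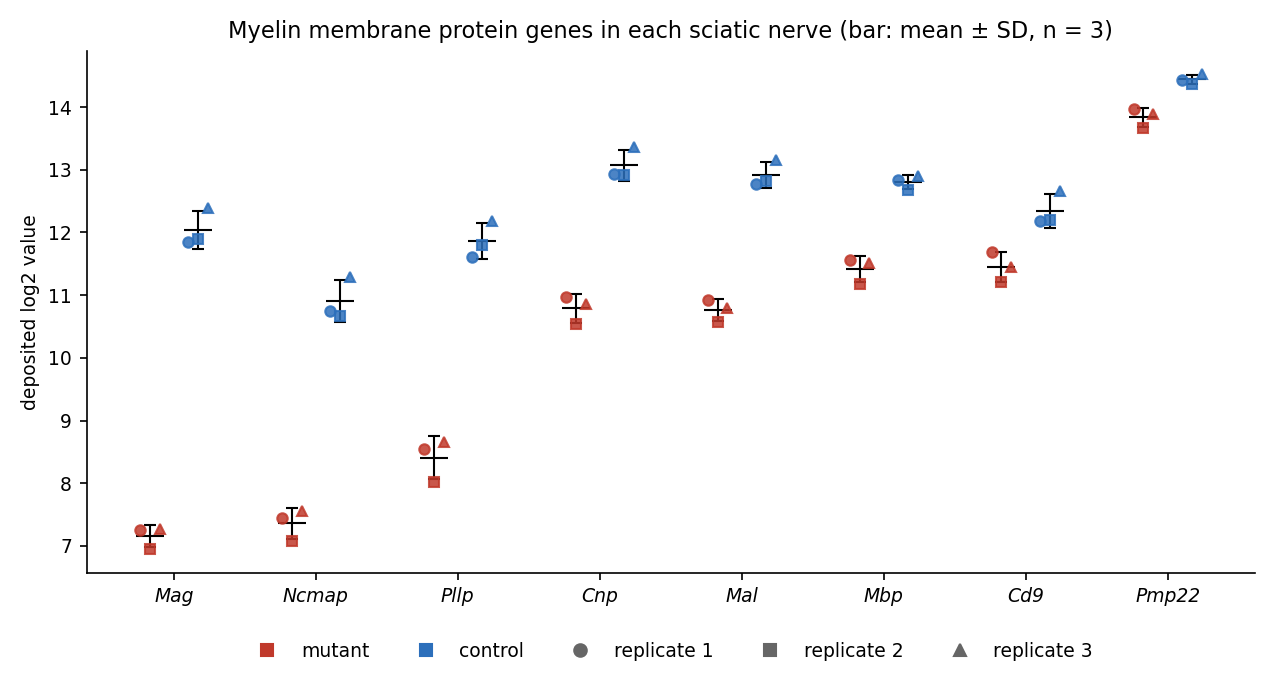
Deposited log2 values (vertical axis) of the 8 genes in each of the 3 mutant (red, left) and 3 control (blue, right) nerves, with symbols for the replicate number and bars for mean ± SD. In every gene the mutant points lie below the control points, by the most for Mag (means 7.15 and 12.04) and by the least for Pmp22 (means 13.84 and 14.44).

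Among the proteins of noncompact myelin, Mag fell most. It encodes a sialic acid-binding adhesion molecule of the Siglec family in the innermost Schwann cell membrane, facing the axon. Mag stood at 7.25, 6.95 and 7.26 in the mutants, against 11.84, 11.90 and 12.39 in the controls. The mutant values were close together and lay below the medians of their arrays, while the control values were far above them. The log2 fold change was −4.89 (SE 0.17, limma adjusted p = 6.56e-05), a 29.6-fold lower signal. Its 95% confidence interval ran from −5.29 to −4.49. It was the third largest fall of all 20239 genes, after 2 others.

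Ncmap, which encodes the noncompact myelin-associated protein of peripheral glia, had the second deepest loss of the 8. Its values were 7.45, 7.08 and 7.55 in the mutants, against 10.75, 10.67 and 11.30 in the controls. The log2 fold change was −3.55 (SE 0.20, limma adjusted p = 0.000267), and the remaining signal was 8.56% of control, with a 95% confidence interval of 6.18% to 11.8%. The mutant values of Ncmap, like those of Mag, lay below the array medians. No detection calls were used, so how much of these low values is background is not known, and their falls may be understated.

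Cnp, which encodes the cyclic nucleotide phosphodiesterase of noncompact myelin, fell less than Mag and Ncmap. It stood at 10.97, 10.53 and 10.86 in the mutants, against 12.93, 12.92 and 13.36 in the controls. The gap between the groups was wider than the spread within either, which was 0.44 in both. The log2 fold change was −2.28 (SE 0.17, limma adjusted p = 0.000582), which left 20.6% of the control signal.

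The 2 genes of MARVEL domain proteins fell to different depths. Pllp, which encodes plasmolipin, stood at 8.55, 8.02 and 8.66 in the mutants, against 11.61, 11.81 and 12.18 in the controls. Its log2 fold change was −3.45 (SE 0.21, limma adjusted p = 0.000346), with 9.13% of the control signal left. Mal, which encodes a raft protein of myelin and of apical membrane traffic in epithelia, stood at 10.92, 10.58 and 10.80 in the mutants, against 12.77, 12.81 and 13.15 in the controls. Its log2 fold change was −2.15 (SE 0.14, limma adjusted p = 0.000393), with 22.6% left. The mutant values of Pllp spread over 0.65, the most of the 8 genes, with mutant 2 below the others.

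Mbp and Pmp22, genes of 2 proteins of compact myelin, kept more of their signal than Mag, Ncmap, Cnp, Pllp and Mal. They do not stand for all such genes. Pmp2, another gene of peripheral myelin, fell by more than any of the 8 (log2 fold change −6.58, given below). Mbp, which encodes the basic protein that compacts the cytoplasmic faces, stood at 11.56, 11.18 and 11.52 in the mutants, against 12.84, 12.68 and 12.90 in the controls. Its log2 fold change was −1.39 (SE 0.13, limma adjusted p = 0.00145), which left 38.2% of the control signal. Pmp22, whose gene dosage is altered in common inherited neuropathies of humans, stood at 13.96, 13.67 and 13.88 in the mutants, against 14.44, 14.37 and 14.52 in the controls. The groups did not overlap, but the log2 fold change was the smallest of the 8, at −0.60 (SE 0.10, limma adjusted p = 0.0137). Its 95% confidence interval ran from −0.85 to −0.36. Without mutant 3 it was −0.62 and did not pass (adjusted p = 0.0575). The value of Pmp22 in control 3 was the highest of any gene on any array, and no gene had a higher control mean. Whether signals at the top of the range were compressed was not tested.

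Cd9, a tetraspanin of myelin that many other cell types also make, lay between Mbp and Pmp22. It stood at 11.69, 11.21 and 11.45 in the mutants, against 12.18, 12.20 and 12.66 in the controls. Mutant 1 was within 0.49 of control 1, and no values of the groups overlapped. The log2 fold change was −0.89 (SE 0.17, limma adjusted p = 0.0222), with 53.8% of the control signal left. This fall did not pass without mutant 2 (−0.77, adjusted p = 0.0535), without mutant 3 (−0.90, adjusted p = 0.0915) or without both muscle-rich samples, mutant 2 and control 2 (−0.85, adjusted p = 0.0792).

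The depth of loss differed between most of the genes. Of 28 pairs, 24 differed in their log2 fold changes (limma on all genes after subtraction, array by array, of the member with the smaller fall, adjusted p under 0.05). Between 80.3% of genes, relative to Pmp22, and 99.9%, relative to Ncmap or Pllp, passed in the same fits. The other fits lay within that range, at 89.7% for Cd9, 97.5% for Mbp, 99% for Mal and 99.1% for Cnp. A gene that falls differs from nearly every other gene, so these calls are read here by the size of the difference and not by their number. With the 28 log2 ratios added as features to the fit across all genes, 24 pairs passed as well, and the same 4 did not. Every subtracted fit shares the spread of the subtracted member over all genes. The standard errors of these fits were larger in all 28 pairs, at 0.11 to 0.305, than with added features, at 0.0781 to 0.16. Their limma adjusted p was nonetheless smaller in many pairs, as for Mag and Cd9 (2.52e-09, against 2.35e-05 with added features). For Mal and Cd9 it was larger (0.000471, against 0.000355). The adjusted p of the subtracted fits, given for the pairs below, may thus be too small. How often the ratio of any other gene to a member separates the groups was not counted over all genes. The number of separated pairs is therefore not read as a property of these genes. In 27 of the 28 pairs the within-array log2 ratios of the 3 mutants did not overlap those of the 3 controls. The exact two-sided permutation test of such a pair gives p = 0.1, the smallest that 3 against 3 samples allow, and 0.104 adjusted over the 28 pairs.

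Mag had a deeper fall in signal than each of the other 7. It fell by 1.34 more than Ncmap on the log2 scale (difference −1.34, 95% confidence interval −1.88 to −0.81, limma adjusted p = 4.49e-05). With the ratio as an added feature, the interval of the same difference was −1.55 to −1.14 (adjusted p = 0.00033). In the mutants both genes lay below the array medians, Mag at a mean of 7.15 and Ncmap at 7.36. Their control means were 12.04 and 10.91. How much of the mutant values is background is not known, so the order of Mag and Ncmap is one of measured signal. The log2 ratio of Mag to Ncmap was −0.20, −0.13 and −0.29 in the mutants, against 1.09, 1.23 and 1.09 in the controls. Levels of different probe sets are not compared, so only the change of this ratio between the groups is read, not its sign. Mag fell by 4.29 more than Pmp22 (95% confidence interval −4.62 to −3.95), a 19.5-fold difference between the 2 changes.

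Ncmap and Pllp formed the next step. Their changes differed by −0.09 (95% confidence interval −0.71 to 0.52, limma adjusted p = 0.760), and this was the pair whose ratios overlapped. Both fell more than Cnp, Ncmap by 1.26 (limma adjusted p = 3.87e-05) and Pllp by 1.17 (adjusted p = 9.65e-05). Cnp and Mal followed, at −0.14 from each other (95% confidence interval −0.47 to 0.20, adjusted p = 0.379). The log2 ratio of Cnp to Mal was 0.05, −0.05 and 0.07 in the mutants, against 0.16, 0.11 and 0.21 in the controls, so it was a little lower in each mutant.

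Mal fell by 0.76 more than Mbp (difference −0.76, limma adjusted p = 0.00066), and Cnp by 0.89 more than Mbp (adjusted p = 0.000219). Mbp fell by 0.78 more than Pmp22 (adjusted p = 0.000846). Cd9 was not placed apart from either neighbour. It differed from Mbp by −0.49 as Mbp minus Cd9 (95% confidence interval −0.99 to −0.00093, limma adjusted p = 0.0549). Cd9 minus Pmp22 was −0.29 (95% confidence interval −0.62 to 0.03, adjusted p = 0.0833). Both calls depended on the setting. Mbp and Cd9 differed past the threshold without control 3 (−0.60, adjusted p = 0.0222), with either filter on low values (0.0399 and 0.0282), with repeated quantile normalization (0.037) and with a trended robust prior (0.022). Cd9 and Pmp22 did so with the trended robust prior (0.0471) and with the adipocyte score as a covariate (0.0179).

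**Figure D2:**
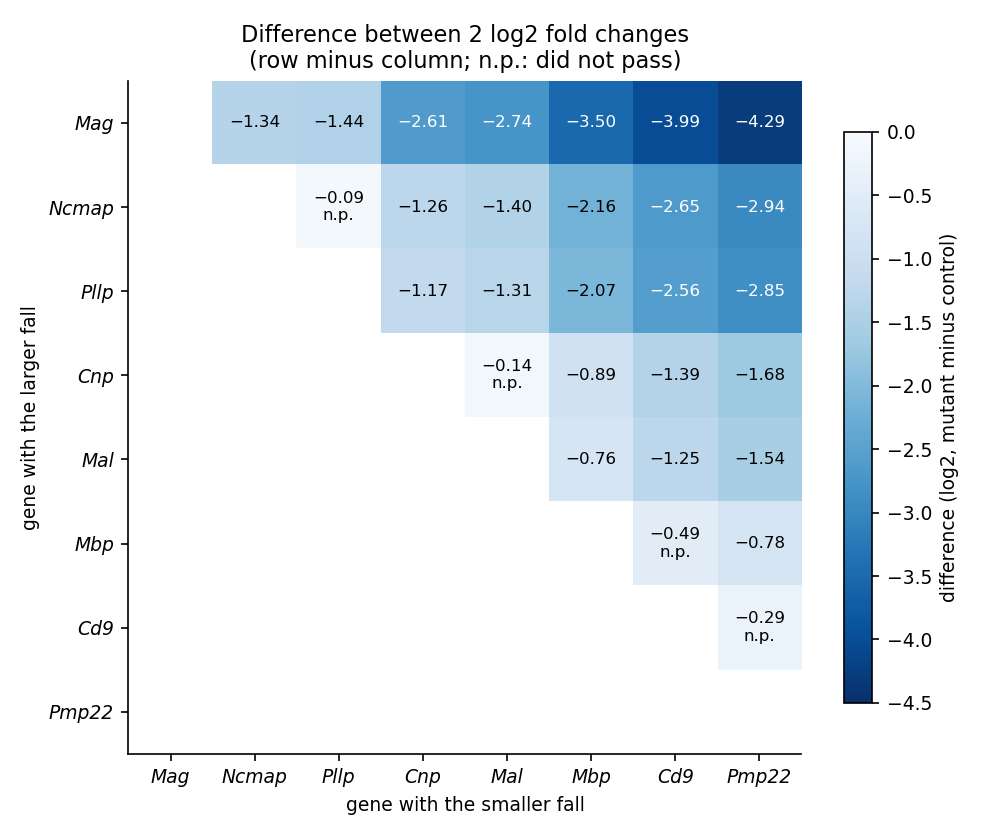
Differences between the log2 fold changes of 2 genes, for each of the 28 pairs. Rows give the gene with the larger fall and columns the gene with the smaller fall, and each cell is row minus column, mutant minus control. Pale cells beside the diagonal mark the 4 pairs that did not pass (n.p.), which are Ncmap and Pllp (−0.09), Cnp and Mal (−0.14), Mbp and Cd9 (−0.49), and Cd9 and Pmp22 (−0.29).

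The 8 genes ranked the samples of a group alike. Mutant 2 was the lowest of the mutants in 8 of 8 genes, and in 40.6% of all genes. Control 3 was the highest of the controls in 8 of 8 genes, and in 34.1% of all genes. Mutant 2 had the highest muscle marker mean of the mutants. Control 2, with nearly the same muscle mean, was the lowest control in 4 of the 8, as control 1 was in the other 4. The part of muscle tissue in these values was not tested beyond the fit with the muscle score, in which all 8 genes passed. Between samples of the same number, the difference for Mag was −4.59, −4.95 and −5.13, and that for Pmp22 was −0.47, −0.70 and −0.64. Samples numbered 1 had the smallest difference in 8 of 8 genes. The share of all genes with this order was not counted. It is not read as a separate result, since the low mutant 2 and the high control 3 have other numbers. Cd9 varied most in proportion, at −0.49, −0.99 and −1.21.

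**Figure D3:**
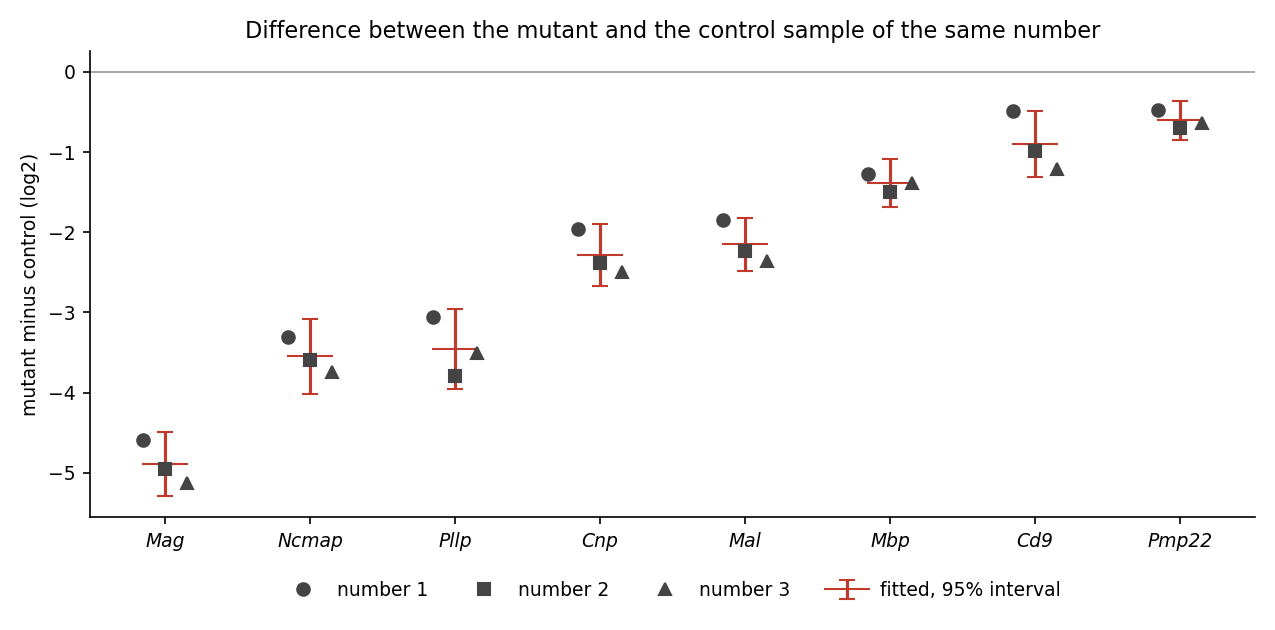
Mutant minus control log2 difference (vertical axis) between the samples numbered 1, 2 and 3 (symbols), with the fitted log2 fold change and its 95% confidence interval (red), for each of the 8 genes. All 24 differences are below 0, from −5.13 for Mag to −0.47 for Pmp22.

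Other myelin proteins were more mixed than the 8. Of 22 listed genes 18 were measured. Of these 11 fell (beside 3.89% of all genes), 1 rose (beside 5.74%) and 6 did not pass. The median log2 fold change was −1.09, beside −0.02 over all genes. The list was chosen with earlier results known. Of the 6 that did not pass, Opalin, Ermn, Omg and Mog had control means of 5.48, 5.21, 5.89 and 6.95, below the array medians. Their mutant means were 5.48, 5.13, 5.85 and 6.83. How much of these signals is background is not known, so they are not read as spared transcripts. The control means of Nkain2 (11.48) and Tspan2 (8.38) lay above the medians. Pmp2, which encodes a lipid-carrying protein of peripheral myelin, had a log2 fold change of −6.58, a larger fall than in any of the 8. Drp2, a dystrophin relative that works with periaxin in Schwann cells, stood at −4.34, and Nfasc, the neurofascin of nodes and paranodes, at −3.34. Cadm4, the Schwann cell adhesion molecule that binds axonal partners across the internode, stood at −2.26, close to Cnp and Mal. The adjusted p of these 4 genes ran from 6.56e-05 to 0.00117. Not all of the 11 falls were as firm. That of Cldn11 (−0.42, limma adjusted p = 0.0392) was lost without any 1 sample (0.0562 to 0.147). Mobp, at −0.76 (adjusted p = 0.0107), lost its call without mutant 1 (0.0514) or mutant 3 (0.0564). Gpr37, a receptor of myelinating glia, rose by 0.53 (limma adjusted p = 0.033). That rise was lost without any 1 sample other than mutant 2, with adjusted p from 0.0587 to 0.115, and with median centring of the arrays (0.0551) or the muscle (0.0556) or sex (0.0578) covariate. The other 4 listed genes were not analysed here.

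The falls of the 8 can be set beside the changes of Schwann cell lineage markers. Of 8 listed markers 6 were measured, and of these 2 fell (beside 3.89% of all genes) and the other 4 did not pass. The median log2 fold change was −0.66. The list's mean log2 value ran from 9.70 to 10.13 in the mutants and from 10.39 to 11.00 in the controls. S100b fell by 1.51 (log2 fold change −1.51, limma adjusted p = 0.00559). Erbb3, a neuregulin receptor, stood at −1.14 (adjusted p = 0.0162), but did not pass without mutant 1 (0.0635) or mutant 3 (0.051). Sox10, the lineage's transcription factor, stood at −0.74 (adjusted p = 0.0639) and passed in the fit blocked on replicate number (0.0136). Ngfr, a neurotrophin receptor also listed here as a nonmyelinating Schwann cell marker, stood at −0.59 (adjusted p = 0.0534). It passed in the blocked fit as well (0.0232). Over the 19 alternative settings, Ngfr passed in 8 and Sox10 in 5. Foxd3 stood at 0.03 and Cdh19, a cadherin of the lineage, at 0.03. Neither of these passed, and both changed sign under other settings. The fold changes of Mag, Ncmap, Pllp, Cnp and Mal lay below the whole range of these markers, and those of Mbp, Cd9 and Pmp22 lay within it.

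Markers of other cells moved as well. At the same threshold, 3.89% of all genes were lower and 5.74% higher. Of 8 endoneurial fibroblast markers 4 rose and none fell (median log2 fold change 0.41), with list means of 12.36 to 12.61 in the mutants and 11.96 to 12.14 in the controls. Of these Lum, at 0.99, held its call when any 1 sample was left out. The calls of Cd34, Fbln1 and Pdgfra were each lost without mutant 1 (adjusted p from 0.0555 to 0.161) and without mutant 3 (0.0581 to 0.163). Fbln1 was also lost without any 1 control (0.0532 to 0.103), and Pdgfra without control 2 (0.0609) or control 3 (0.0569). Of 8 perineurial markers 6 rose (median 0.92), with list means of 10.86 to 11.04 in the mutants and 9.87 to 10.12 in the controls. Moxd1, at 2.03, and Cldn1, at 1.53, held their calls when any 1 sample was left out, while Casq2 (0.0529) and Msln lost theirs without mutant 3, and Msln also without mutant 1 (0.0527 to 0.0594). None of 8 macrophage markers passed in limma, and 3 had an unadjusted p under 0.05 (median log2 fold change 0.32, list means of up to 9.30 in the mutants and up to 9.01 in the controls). Of these, Lyz2, at 0.58, passed in the blocked fit (0.0311) and without control 1 (0.0198). Of 8 endothelial markers 1 fell, Cldn5, at −0.42, and its call was lost without any 1 sample other than control 2 (adjusted p from 0.0723 to 0.129) and in the blocked fit (0.0503). The endothelial list means were 10.12 to 10.21 in the mutants and 10.06 to 10.49 in the controls. Of 9 markers of nonmyelinating Schwann cells 3 rose and 3 fell, with Gfap at 4.55 and Cadm3 at −2.70 as the largest. That list's means were 9.84 to 10.22 in the mutants and 9.83 to 10.06 in the controls. The part of these cell types in the values of Pmp22 and Cd9, which other cells of the nerve also express, was not tested.

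Relatives of the members moved in both directions. Over the 4 family lists, 7 of 51 measured genes fell (13.7%, beside 3.89% of all genes), 7 rose (13.7%, beside 5.74% of all genes) and 37 did not pass. In the PMP22 family, which includes the epithelial membrane proteins, Emp2 fell and Emp1 and Emp3 rose. Emp2 stood at 10.47, 10.23 and 10.50 in the mutants, against 12.08, 12.09 and 12.65 in the controls (log2 fold change −1.87, SE 0.17, limma adjusted p = 0.00145). Emp1 stood at 13.04, 12.65 and 13.14 in the mutants, against 11.98, 11.85 and 11.80 in the controls (log2 fold change 1.06, SE 0.14, adjusted p = 0.00502). Emp3 rose by 0.87 (adjusted p = 0.0037), and the lens protein gene Lim2 stood at 0.00. Neither the rises nor the fall was lost when any 1 sample was left out.

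Of 11 measured MARVEL domain relatives of Mal and Pllp, 2 fell and the other 9 did not pass (median log2 fold change −0.04). Cmtm6 fell by 0.86 (limma adjusted p = 0.0134, 0.0604 without mutant 3). Cmtm5 fell by 0.84 (adjusted p = 0.0288), a call lost without mutant 1, mutant 2, control 1 or control 3 (0.0566 to 0.104). Mal2, the closest relative of Mal by name, stood at 0.06, with a control mean of 5.92, below the array medians. None of the 8 Siglec relatives of Mag passed at an adjusted p under 0.05 in limma, and their log2 fold changes ran from −0.10 to 0.24, the highest being that of Cd33 (adjusted p = 0.441, unadjusted p = 0.168). None had an unadjusted p under 0.05 (0 of 8). The control means of Cd22, Siglecg, Siglech, Siglece and Siglecf, from 6.78 to 7.54, lay below the array medians. Those of Siglec15, Siglec1 and Cd33 ran from 8.09 to 9.52. How much of the low signals, here and for Mal2, is background is not known.

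Of 28 measured tetraspanins besides Cd9, 4 fell, 5 rose and 19 did not pass (median log2 fold change −0.05). Tspan17 fell by 2.03 (limma adjusted p = 0.000834), more than Cd9, and its values were 9.92, 9.72 and 9.95 in the mutants, against 11.78, 11.67 and 12.24 in the controls. Upk1b rose by 1.33 (adjusted p = 0.0051) and Tspan6 by 0.90 (adjusted p = 0.00819). These 3 calls held when any 1 sample was left out. The falls of Tspan18 (−1.11), Tspan15 (−0.95) and Cd82 (−0.59) did not all hold. Tspan18 was lost without mutant 1 or mutant 3 (adjusted p 0.101 to 0.107), Tspan15 without mutant 1 (0.0543), and Cd82 without any mutant or control 2 (0.0669 to 0.144). The rises of Cd63 (0.68), Cd53 (0.67) and Tspan5 (0.58) were likewise lost. Cd63 was lost without mutant 1, mutant 3, control 2 or control 3 (0.0674 to 0.102). Cd53 was lost without any sample but control 1 (0.0541 to 0.189) and in the blocked fit (0.0504), and Tspan5 without mutant 1, mutant 3, control 1 or control 2 (0.0709 to 0.12).

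**Figure D4:**
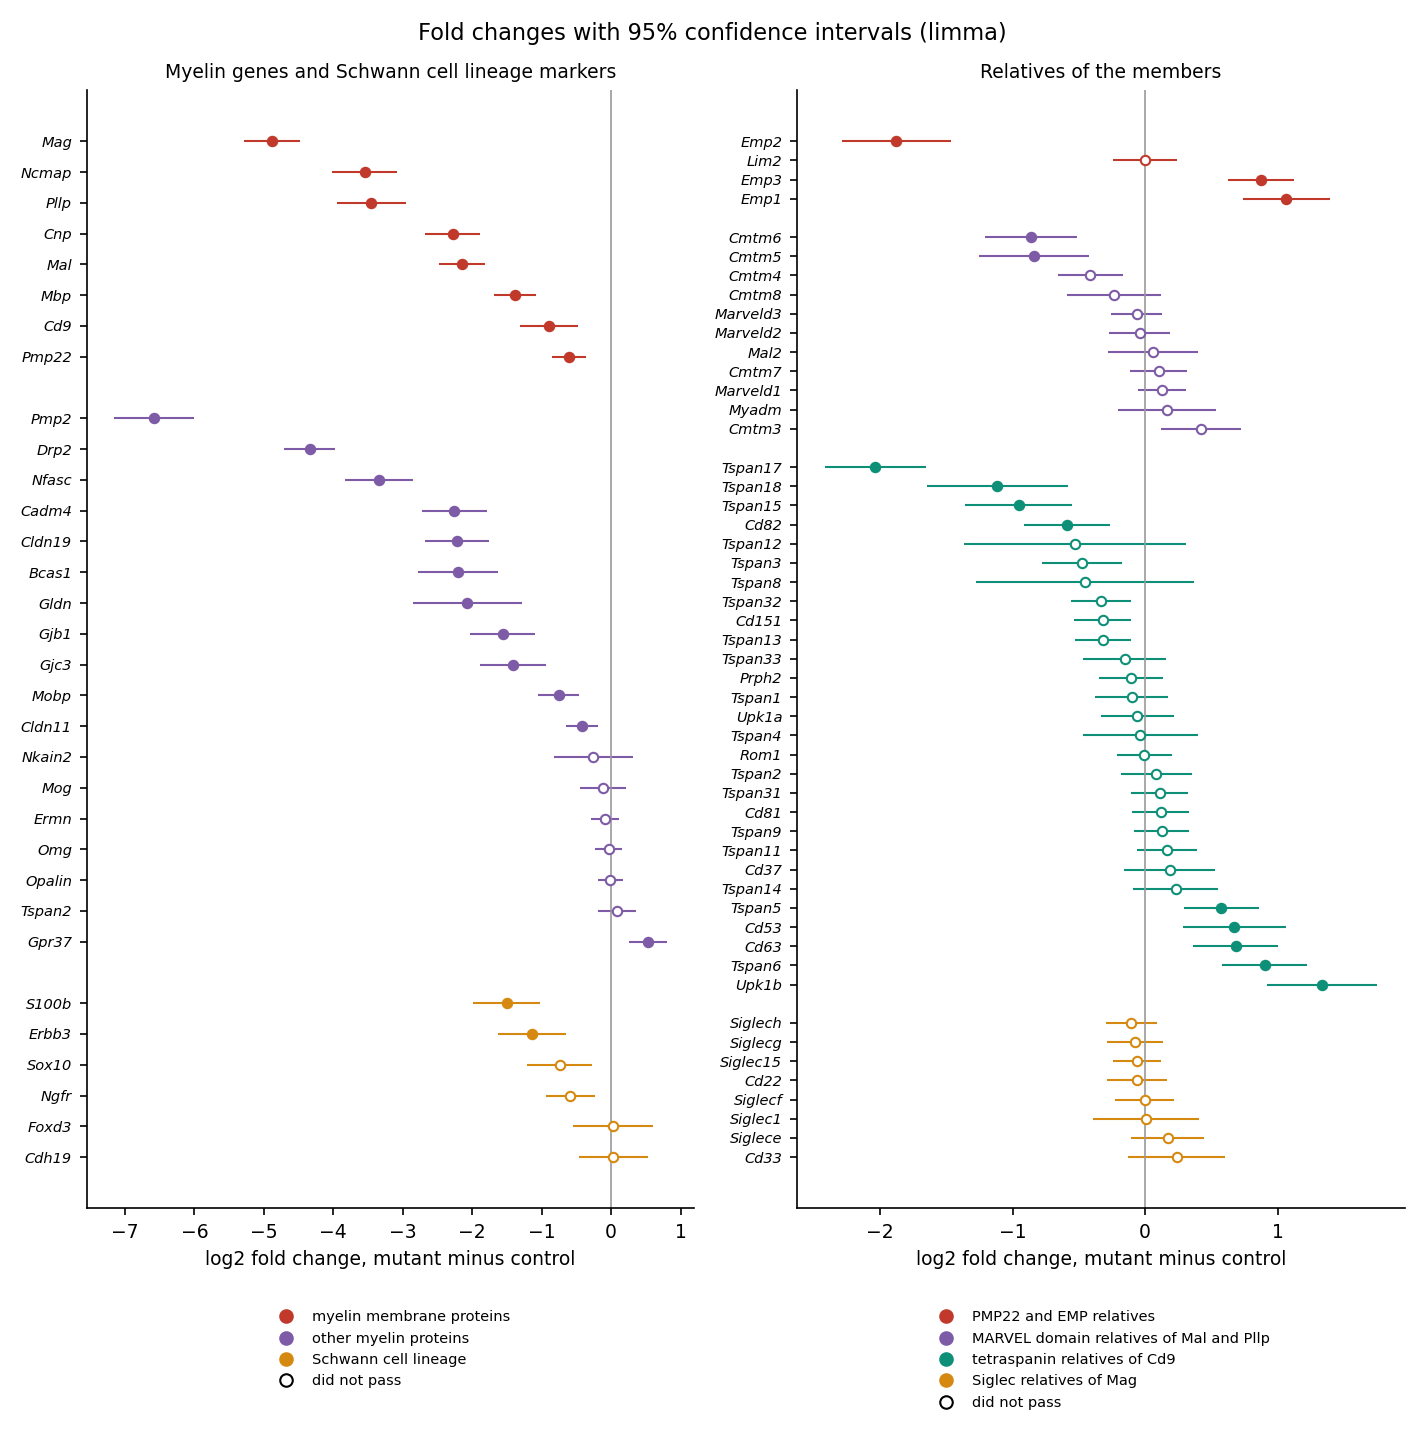
Log2 fold changes, mutant minus control, with 95% confidence intervals from limma (horizontal axes, on different scales) for the 8 genes, other myelin proteins and Schwann cell lineage markers (left) and for relatives of the members (right). Filled points passed at an adjusted p under 0.05 and open points did not. The 8 genes run from −4.89 to −0.60, while the relatives lie on both sides of 0, from Tspan17 at −2.03 to Upk1b at 1.33.

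The 3 genes outside the set of 8 that lay closest to each member over the 6 arrays were found by the root mean square distance between values centred on each gene's own mean, a description that mixes the group difference with the spread within groups. Mag was nearest to Dusp15 (distance 0.10 on the log2 scale), to Ugt8a, the enzyme that makes galactocerebroside (0.10), and to Fa2h, which hydroxylates myelin lipids (0.23). Ncmap and Pllp had the same 3 nearest genes outside the set, the guidance ligand gene Slit2, the FERM domain gene Frmd3 and Nfasc, at distances of 0.11 to 0.17, and lay at 0.12 from each other. The nearest such gene to Cnp was Secisbp2l (0.04), followed by the tight junction gene Cldn19 (0.08) and the semaphorin gene Sema5a (0.08).

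Cnp and Mal lay at 0.08 from each other. Outside the set, Mal was nearest to the scaffold gene Mapk8ip1 (0.08), the sterol synthesis gene Msmo1 (0.09) and the elongase gene Elovl4 (0.09). Mbp was nearest to Pea15a (0.08), the G protein gene Gnai1 (0.09) and Adam23 (0.10). Cd9 was nearest to Hspa12a (0.03), the plexin gene Plxnb1 (0.04) and the kinase gene Itpkb (0.04). Pmp22 was nearest to Tnfrsf22 (0.04), Dusp18 (0.05) and Comtd1 (0.05), genes whose control means, unlike that of Pmp22, were not at the top of the array. For instance, Comtd1 stood at 8.42, 8.21 and 8.32 in the mutants, against 8.96, 8.82 and 8.91 in the controls.

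Regulators of myelin genes were split. Of 16 measured, 2 fell (beside 3.89% of all genes), 4 rose (beside 5.74%) and 10 did not pass (median log2 fold change −0.01). Besides Zeb2, Pou3f1 fell, at −0.84 (limma adjusted p = 0.0296), a call lost without any mutant or control 2 (0.066 to 0.125). Pou3f2 rose by 1.03 (adjusted p = 0.00778) and Zfp24, a zinc finger gene, by 0.69 (adjusted p = 0.0137). The rise of Zfp24 was lost without mutant 1 or mutant 3 (0.057 and 0.0561). Egr2, the factor that induces many myelin genes, stood at 10.71, 8.99 and 9.96 in the mutants, against 10.83, 11.25 and 11.98 in the controls. Its log2 fold change of −1.47 did not pass (limma adjusted p = 0.11), nor did it when any 1 sample was left out (0.0698 to 0.27), but it passed with the adipocyte score as a covariate (0.0305). The values spread widely in both groups. As in the 8 genes, mutant 2 was the lowest mutant and control 3 the highest control.

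The start regions of the genes were searched for short motifs of factors that bear on this study. Sequences of 300 bases, 250 before and 50 after each annotated start, came from RefSeq on GRCm38.p6 and were at hand for 7 of the 8 genes, all but Mbp. The motifs, on both strands, were CACCTG, the E-box bound by ZEB factors, ACAAAG, bound by SOX factors, and GTGGGNG, bound by EGR factors. At least 1 window of 5 of the 7 genes held CACCTG, as did those of 22.6% of all 27025 genes with a window. ACAAAG was found for 2 of the 7 (21.0% of all genes) and GTGGGNG for 3 (34.3% of all genes). No 2 of the matches shown overlap. Pmp22, in 4 windows, and Mal, in 1, held none of the 3. The stretches from base 180 to base 31 before the start are shown for the 5 genes with CACCTG, read along the gene, with matches in capitals. That of Mag is from its outermost start, while its CACCTG lies before an inner start and is not shown. A match is a description of letters and not a binding site.
Mag, chr7:30914953-30915102, minus strand: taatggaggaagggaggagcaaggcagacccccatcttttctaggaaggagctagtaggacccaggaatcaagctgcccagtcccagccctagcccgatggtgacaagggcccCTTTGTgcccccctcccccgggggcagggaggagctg
Ncmap, chr4:135398258-135398407, minus strand: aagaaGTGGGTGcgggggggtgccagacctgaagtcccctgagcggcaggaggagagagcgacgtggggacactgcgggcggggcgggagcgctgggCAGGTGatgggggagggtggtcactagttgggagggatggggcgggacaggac
Pllp, chr8:94696273-94696422, minus strand: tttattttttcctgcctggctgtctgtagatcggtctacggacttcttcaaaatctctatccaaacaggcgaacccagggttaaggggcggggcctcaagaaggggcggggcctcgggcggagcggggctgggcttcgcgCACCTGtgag
Cnp, chr11:100574759-100574908, plus strand: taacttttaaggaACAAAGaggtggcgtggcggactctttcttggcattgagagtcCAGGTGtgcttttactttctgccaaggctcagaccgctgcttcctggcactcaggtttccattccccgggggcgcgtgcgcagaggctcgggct
Cd9, chr6:125494791-125494940, minus strand: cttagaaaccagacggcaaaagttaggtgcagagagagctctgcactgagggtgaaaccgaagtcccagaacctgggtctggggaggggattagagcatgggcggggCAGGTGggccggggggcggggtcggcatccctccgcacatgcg
In these stretches Pllp carried CACCTG 40 bases before its start, on its own strand. Cd9, Ncmap and Cnp carried it on the opposite strand, as CAGGTG, beginning 73, 83 and 124 bases before the start. Mag carried the SOX letters on the opposite strand, as CTTTGT, beginning 67 bases before its outermost start. Cnp carried them 167 bases before its start, and Ncmap an EGR match 175 bases before its start. The genes with CACCTG thus ran from the deepest loss, Mag, to one of the shallowest, Cd9, and the 2 without it were Mal and Pmp22.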

How the data were processed

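Total RNA of sciatic nerve was extracted with Trizol and labelled with biotin through the Ambion WT kit, per the labels' protocols. The values were deposited by the authors as log2 intensities per probe set. The submitters' processing notes name limma, and no source used here gives the normalization. The log2 scale was read from the values, whose array medians nearly coincide. Of 21225 probe sets, 20239 had 1 gene symbol in the platform annotation, and 986 had none and were not tested. Samples were grouped by the genotype label.

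The test of each gene was a two-sided moderated linear model over the 6 arrays without covariates (limma 3.58.1, R 4.3.3), with Benjamini-Hochberg adjustment over 20239 genes and a threshold of 0.05. Differences between members used the same fit after subtraction of one member from every gene, array by array, with an exact permutation test beside it. The scripts were checked on simulated data. The labels call the samples biological replicates. Deviations from the group means correlated over all genes at 0.36, 0.574 and 0.295 between samples of the same number. Mutant 1 and control 3 correlated at 0.303, and the other samples of different numbers at −0.607 to 0.001. Over the 8 members the same-number correlations were −0.021, −0.061 and 0.395, against 0.553 for mutant 2 with control 1. Whether the numbers pair the samples is not settled by these values. The main test did not use them, and a fit blocked on replicate number was among the alternatives. Further alternatives were filters on low values, renormalization, other variance priors, tissue and sex covariates, and leaving out samples. Sex, and the pair ratios as added features, were added after seeing the data.

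Members and lists were chosen with earlier results of these data known. The genes named were the 8 members, the 3 nearest genes of each, Zeb2, up to 4 of each list with the largest changes that passed (the smallest p where none did), and each relative that passed. Values of muscle and adipocyte markers are given as list means. Sox10, Ngfr, Foxd3, Cdh19, Egr2, Gpr37, Mal2 and Lim2 were named after their values were seen. So were Opalin, Ermn, Omg, Mog, Nkain2, Tspan2, Cldn11, Mobp and the Siglec relatives other than Cd33. Python 3.11.15 and matplotlib 3.10.9 drew the figures.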

Additional observations from a re-analysis of the deposited data

How the results depend on the processing

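The results were recomputed under 19 alternatives. Of 152 recomputed member values, 148 kept their direction and their side of the threshold, 4 lost their call (3 of Cd9 and 1 of Pmp22, given above) and 0 changed sign. The number of members called lower ran from 6 to 8 when 1 sample was left out, with 6 without mutant 3, and that of other myelin proteins from 9 to 10. In the replicate block fit, 8 members, 10 other myelin proteins, 24 pairs and 2047 genes over all passed, and no member's call changed. Over all genes 1948 passed, against 3655 with array weights, and between 896 (without mutant 1) and 2021 (without mutant 2) when 1 sample was left out. Without mutant 3 it was 910. Fits without a sample have fewer degrees of freedom. Of 560 recomputed pair differences, 553 kept their call, 7 passed that had not (5 of Mbp and Cd9, 2 of Cd9 and Pmp22), and 0 were lost. The fold change of Cdh19, 0.03, changed sign to −0.018 with median centring, −0.13 with the adipocyte score, −0.049 with sex, −0.033 without mutant 2 and control 2, −0.04 without mutant 3, −0.07 without control 1 and −0.11 without control 2, and was 0.27 without control 3. That of Foxd3, 0.03, changed sign to −0.014 with repeated quantile normalization, −0.025 with median centring, −0.18 with the adipocyte score and −0.058 with sex. It was −0.12 without mutant 1, −0.02 without mutant 3, −0.16 without control 1 and −0.001 without control 2, and 0.24 without control 3. The cause was not tested. No detection calls were used, so background limits low values such as those of Mag and Ncmap in the mutants.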
